A study of Homo sapiens with 12 samples.

Results

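Long intergenic non-coding RNAs (lincRNAs) that were expressed in 2 liver cancer lines, HepG2 and Huh7, were described with and without geniposide. The set was every gene that the deposited table classes as lincRNA, that lies on chromosomes 1 to 22 and that reached at least 2 FPKM (fragments scaled to gene length and library size) in at least 3 of the 12 samples. The SNHG family and H19, GAS5, DANCR and MIR17HG were left out by name. This gave 306 of the 58735 genes in the table, which holds 7629 lincRNA genes. At the level threshold there were 328 lincRNA genes, of which 17 lay outside these chromosomes and 5 were left out by name. The members were chosen by their level, so their level is a description here and not a result.

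A lincRNA is transcribed, and often spliced and polyadenylated, from DNA between protein-coding genes, but carries no long open reading frame. Some have known roles: NEAT1 is the scaffold of the nuclear bodies called paraspeckles, MALAT1 gathers in nuclear speckles beside splicing factors, and NORAD binds Pumilio proteins in the cytoplasm. Many others start close to a coding gene on the opposite strand or carry microRNAs in their introns or exons, and most clone-named loci have no assigned function.

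The study set HepG2 cells given geniposide, an iridoid glucoside of gardenia fruit, beside untreated HepG2 cells, and Huh7 cells given geniposide beside untreated Huh7 cells, all tagged 48 h. Each of the 4 groups has 3 samples, and both lines are labelled human hepatoma. The sources used here give no dose and name no vehicle. Nor do they say if a group's samples came from separate cultures, so p-values reflect only how far these samples spread, possibly for technical reasons. RNA was poly-A selected and the library protocol records no strand-marking step, so reads from overlapping genes on opposite strands cannot be told apart.

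Between 15056655 and 17211659 fragments per library were assigned to genes. The third geniposide Huh7 library stood apart: its chi-square per degree of freedom against the other libraries of its group was 43.4 and 44.9, whereas other pairs within groups lay between 2.2 and 6.58. None of the 6 hepatocyte markers reached 1 FPKM in any library (summed levels of 0.0261 to 0.11 FPKM in geniposide HepG2, 0.0 to 0.23 in untreated HepG2, 0.101 to 0.401 in geniposide Huh7 and 0.212 to 0.258 in untreated Huh7), ALB was listed at 0 in HepG2 and APOB in all 12 libraries. The cells are therefore called only by their labels. Summed fibroblast markers were 44.5 to 46.6 FPKM in geniposide HepG2 cells and 36.5 to 38.1 FPKM in untreated ones, with COL1A2 at 0, and summed cholangiocyte markers were 72.4 to 75.9 and 275.3 to 287.5 FPKM. The cholangiocyte sum is nearly all KRT7, at a mean of 72.9 FPKM in geniposide HepG2 and 278.9 FPKM in untreated HepG2, while SOX9 averaged 0.59 FPKM with geniposide and 0.257 FPKM untreated. Among the fibroblast genes COL3A1 averaged 22.9 FPKM with geniposide and 14.7 FPKM untreated, and PDGFRB 2.09 FPKM with geniposide and 4.33 FPKM untreated. These sums move with the treatment in HepG2, and their part in the results below was not tested. In bulk RNA, fewer cells of a type and less RNA per cell cannot be told apart.

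The lincRNAs were short of reads as a class. They supplied 0.542%, 0.56% and 0.56% of gene fragments in geniposide HepG2 samples, against 0.406%, 0.417% and 0.44% in untreated HepG2 samples. In Huh7 they supplied 0.229%, 0.223% and 0.212% with geniposide, against 0.17%, 0.171% and 0.172% untreated. In each line every geniposide sample was above every untreated one. Members at 2 FPKM or more numbered 216, 212 and 212 in geniposide HepG2 samples and 175, 174 and 184 in untreated ones. Geniposide Huh7 samples had 175, 175 and 136, against 134, 138 and 135 in untreated Huh7 samples, so the third geniposide library lay within the untreated range by this count.

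**Figure D1:**
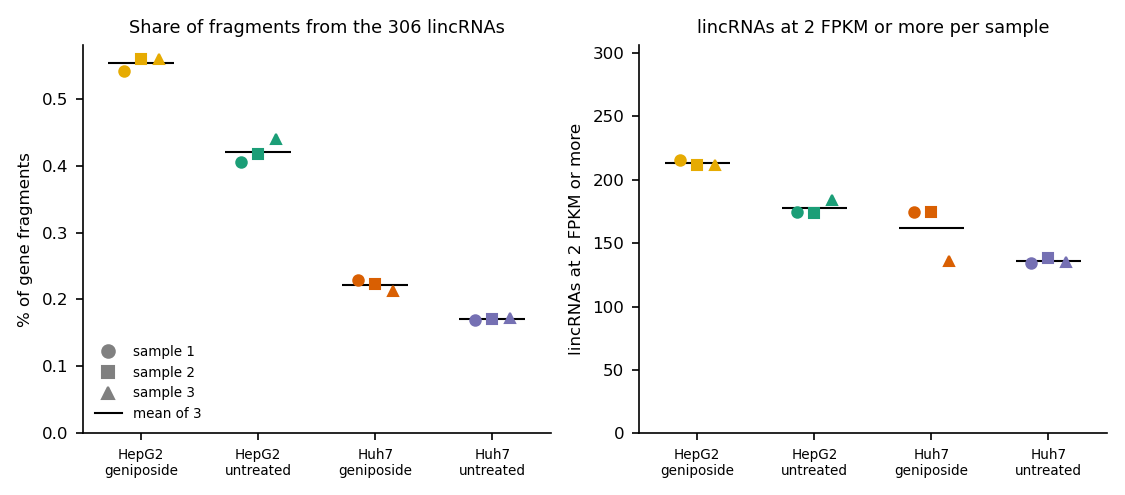
Percent of gene fragments that came from the 306 lincRNAs (left) and number of them at 2 FPKM or more (right) in each sample, with geniposide left of untreated for each line; points are samples and bars are means of 3. The geniposide HepG2 samples (0.542% to 0.56%) lie above the untreated ones (0.406% to 0.44%). The third geniposide Huh7 sample has 136 members at 2 FPKM, against 175 in each of the other 2. These values also chose the members, so the order is a description.

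The median member averaged 2.3 FPKM over the 12 samples, with quartiles at 1.67 and 3.8 FPKM. Most were low: 255 averaged under 5 FPKM and 13 averaged 10 FPKM or more. The rule was met in the HepG2 columns alone by 222 members, in the Huh7 columns alone by 172, in both by 94, and only with columns of both lines by 6. Just 45 were at 2 FPKM or more in all 12 samples, while 16 were listed at 0 in every HepG2 sample and 28 in every Huh7 sample. In the untreated columns 209 met the rule and 97 did not. At the edge of the rule, the values that ranked the third for AL359881.1, AC108062.1 and TRAM2-AS1 were 2.002, 2.024 and 2.04 FPKM, and those of AC012360.3, AL645608.8 and AJ011932.1, just outside, were 1.998, 1.987 and 1.986 FPKM.

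The loci were mostly unnamed and small. Clone-based names covered 185 of the 306, LINC numbers 60, antisense-style names (-AS) 18, divergent-transcript names (-DT) 8 and microRNA host names 6. Their exonic length had a median of 1150.5 bases, from 110 to 22767, and 98 had a single exon. Another gene's exons overlapped 71 of them, by over 50% of the exonic bases for 2. Stretches of 75 bases that also occur in another gene's transcripts were present in 93 members and made up over 50% of the stretches in 8. Among these was LINC00623 with 55.4% shared with any other gene, most often LINC00869. The authors' counting could therefore have split reads between such copies.

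Several of the most abundant members were found in HepG2 alone. AC005392.2 (chr19:43329295-43331430, GRCh38, minus strand), the highest by mean FPKM, had 246.0, 259.2 and 224.5 FPKM in geniposide HepG2 samples, against 142.3, 117.1 and 142.4 FPKM in untreated ones, and was listed at 0 in all Huh7 samples. AL161431.1 had 163.2, 165.2 and 190.0 FPKM with geniposide in HepG2, against 103.2, 96.5 and 99.4 FPKM untreated. Both sets of HepG2 values are separate. In untreated cells AL161431.1 was at least 2858-fold higher in HepG2 than in Huh7, against a floor of 3 fragments per library, since it too was listed at 0 in Huh7.

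Among the other abundant members, IGFL2-AS1 had 115.9, 114.6 and 115.9 FPKM in geniposide HepG2 samples, against 61.9, 61.3 and 69.9 FPKM in untreated ones, and reached 0.0306 FPKM in a single Huh7 sample. PICSAR, known in squamous skin cancer, had 102.5, 112.9 and 100.7 FPKM with geniposide in HepG2, against 95.8, 97.1 and 102.3 FPKM untreated, values that overlap. NEAT1 alone took 25.4% to 26.7% of the lincRNA fragments in geniposide HepG2 and 29.5% to 33.3% in untreated HepG2. In Huh7 it took 2.15% to 2.84% with geniposide and 2.15% to 2.4% without. There NORAD held the larger share, 11.1% to 14.3% with geniposide and 15.7% to 15.9% without.

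**Figure D2:**
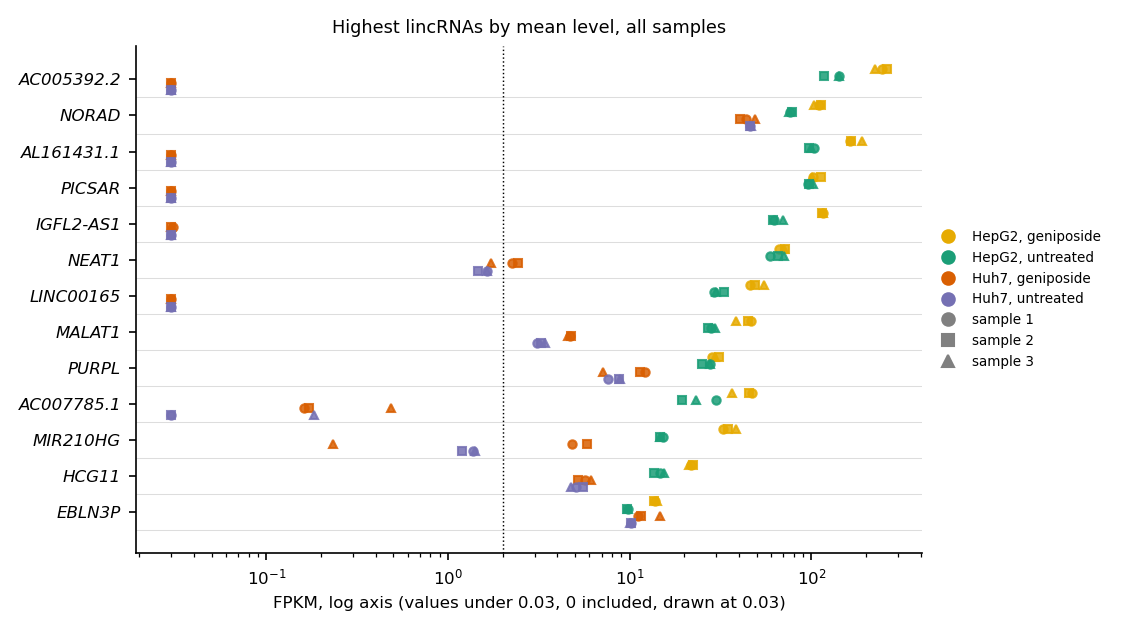
FPKM (log axis) of the 13 lincRNAs that averaged 10 FPKM or more, per sample, with the dotted line at 2 FPKM and values under 0.03 drawn at 0.03. AC005392.2, AL161431.1, PICSAR, IGFL2-AS1 and LINC00165 sit at the bottom of the axis in most or all Huh7 samples and at 29.2 FPKM or more in all HepG2 samples, whereas NORAD lies between 40.4 and 112.4 FPKM in all 12.

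Set side by side as a description, 86 members were at least 4-fold higher in untreated HepG2 than in untreated Huh7 (or at 0 in Huh7), 38 were at least 4-fold higher in untreated Huh7 (or at 0 in HepG2), and 182 lay within 4-fold. Every untreated HepG2 sample was above every untreated Huh7 sample for 150 members and below for 79. The same counts were not made for all genes, so neither these nor the 4-fold counts can be read as particular to lincRNAs. NEAT1 had 58.8, 65.1 and 70.6 FPKM in untreated HepG2, against 1.63, 1.47 and 1.64 FPKM in untreated Huh7, a ratio of 41.1. LINC02381 ran the other way, with 0.32, 0.228 and 0.18 FPKM in untreated HepG2, against 11.4, 12.5 and 12.1 FPKM in untreated Huh7. LINC01836 and ARLNC1, an androgen-receptor-linked lincRNA of prostate cancer, were HepG2-high, and AC015813.1 was Huh7-high. These levels chose the members, so no test of them is given.

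Geniposide was set against no treatment within each line, the question the design poses, with limma on log2(FPKM + 1) over 15518 genes and 12 samples, Benjamini-Hochberg adjusted over all of them. All differences given below as log2 are on that scale, with SE from the fit and n = 3 per group. The scale understates the change of low genes. A gene with an adjusted p under 0.05 is said to have risen or fallen. In HepG2, 102 lincRNAs rose and 24 fell, 33.3% and 7.84% of the 306, where 21.0% of all genes tested rose and 21.5% fell. In Huh7, 69 rose and 11 fell, 22.5% and 3.59%, where 16.4% of all genes tested rose and 18.1% fell. The members' median log2 difference was 0.21 in HepG2 and 0.13 in Huh7, against 0.0 over all genes in each line.

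These counts include members that entered the set only because geniposide samples were high. Of the 97 that do not meet the rule in the untreated columns, 42 rose in HepG2 and 25 in Huh7. Of the 209 that do, 60 rose and 24 fell in HepG2, and 44 rose and 11 fell in Huh7. Put for each contrast, 34 of the 102 rises and 6 of the 24 falls in HepG2, and 13 of the 69 rises and 4 of the 11 falls in Huh7, are of members that would miss the rule without the 3 samples of the group in which they were higher. Where such a member is named below, that difference is a description with no p. A choice that did not use the line tested gave smaller shares. Of the 172 members that meet the rule in the Huh7 columns alone, 41 rose and 12 fell in HepG2 (23.8% and 6.98%, median log2 difference 0.16). Of the 222 that meet it in the HepG2 columns alone, 44 rose and 5 fell in Huh7 (19.8% and 2.25%, median 0.09). Chosen so, the shares that rose were near the background of 21.0% and 16.4%, and the shares that fell were below 21.5% and 18.1%. Low shares of falls were not particular to the members. Of 822 antisense genes tested, 20.3% rose and 5.47% fell in HepG2, and 16.1% rose and 4.62% fell in Huh7. Of 296 lincRNA genes tested that are not members, 17.2% rose and 7.09% fell in HepG2, and 14.5% rose and 2.7% fell in Huh7.

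Protein-coding genes of the same level, inside the members' quartiles, give another measure. Of 2094 such genes, 476 rose and 325 fell in HepG2 (22.7% and 15.5%), and 445 rose and 244 fell in Huh7 (21.3% and 11.7%). Single geniposide libraries, each set against the mean of the untreated ones, had member medians of 0.20, 0.21 and 0.19 in HepG2, and of 0.18, 0.18 and 0.02 in Huh7, where the third library again stood apart. Without it, 89 lincRNAs rose and 12 fell in Huh7, and 114 rose and 29 fell in HepG2. Of all 15518 genes, 3503 then rose and 3651 fell in Huh7, and 4107 rose and 4235 fell in HepG2. With all samples, 2545 rose and 2812 fell in Huh7, and 3258 rose and 3344 fell in HepG2, so calls grew over all genes too. Scaled to TPM, 104 rose and 17 fell in HepG2 and 80 rose and 8 fell in Huh7, but the median of all genes then moved by 0.06 in each line, and rises made up 58.0% and 61.6% of all calls over all genes, against 49.3% in HepG2 and 47.5% in Huh7 as deposited. With quantile normalization 86 rose and 28 fell in HepG2 and 62 rose and 15 fell in Huh7, with member medians of 0.14 and 0.07. Over all genes 2902 rose and 3174 fell in HepG2, and 2633 rose and 2794 fell in Huh7, under that scaling.

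**Figure D3:**
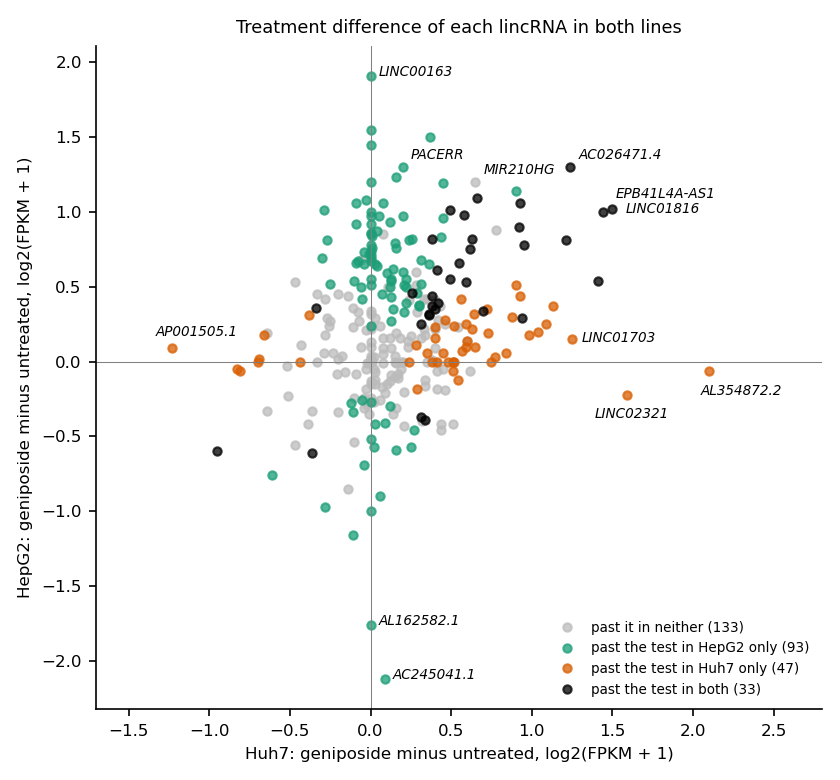
Geniposide minus untreated in log2(FPKM + 1) for the 306 lincRNAs, in Huh7 (horizontal axis) and HepG2 (vertical axis), coloured by the line in which the adjusted p was under 0.05. In HepG2 alone 93 were called, in Huh7 alone 47, in both 33 and in neither 133. These are counts of members, with no matching counts for all genes.

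The calls of the 2 lines were then set side by side, as a description. How many of all genes tested have each pair of calls was not counted, so no overlap beyond the background can be read. Of the 306, 28 rose in both lines and 2, AC019069.1 and AC125807.2, fell in both. Another 73 rose in HepG2 with no call in Huh7, and 39 rose in Huh7 with no call in HepG2, while 3 went in opposite directions. By raw values, all HepG2 geniposide samples were above all untreated ones for 125 members and below for 34, where 29.4% of all genes tested do each. In Huh7 the counts were 82 above and 17 below, where 21.3% and 22.6% of all genes do. The difference between the lines' effects (HepG2 minus Huh7) was positive past adjusted p 0.05 for 49 members and negative for 32, against 14.1% and 13.7% of all genes tested. A member near 0 in one line has a difference that is mostly the other line's effect.

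A rise shared by the lines was seen at EPB41L4A-AS1 (chr5:112160526-112164276, plus strand), first described as a transcript induced by growth arrest, which lies opposite EPB41L4A. Its promoter is shown, with those of OSER1-DT and NUP50-DT, the latter a divergent transcript of a nuclear pore gene. They are examples that hold a match to CACGTG or ACGTG, and do not stand for all promoters of shared rises. Each runs 5′ to 3′ on the lincRNA's strand from 250 bases before to 50 after the RefSeq start (GRCh38.p14), and capitals mark CACGTG, the E-box core, or where that is absent ACGTG, the core of the hypoxia response element, which is contained in CACGTG. The windows are chr5:112160276-112160575 plus, chr20:44210710-44211009 plus and chr22:45163732-45164031 minus.
EPB41L4A-AS1: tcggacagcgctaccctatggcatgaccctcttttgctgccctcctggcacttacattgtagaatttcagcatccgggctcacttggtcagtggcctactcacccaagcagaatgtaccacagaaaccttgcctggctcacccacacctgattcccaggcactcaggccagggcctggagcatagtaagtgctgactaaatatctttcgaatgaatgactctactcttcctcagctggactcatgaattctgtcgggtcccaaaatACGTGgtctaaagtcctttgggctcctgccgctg
OSER1-DT: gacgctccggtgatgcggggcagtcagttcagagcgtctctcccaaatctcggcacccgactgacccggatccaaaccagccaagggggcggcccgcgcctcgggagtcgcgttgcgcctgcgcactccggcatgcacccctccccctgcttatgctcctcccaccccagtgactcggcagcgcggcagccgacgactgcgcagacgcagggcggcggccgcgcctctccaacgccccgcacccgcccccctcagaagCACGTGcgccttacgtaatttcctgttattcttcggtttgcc
NUP50-DT: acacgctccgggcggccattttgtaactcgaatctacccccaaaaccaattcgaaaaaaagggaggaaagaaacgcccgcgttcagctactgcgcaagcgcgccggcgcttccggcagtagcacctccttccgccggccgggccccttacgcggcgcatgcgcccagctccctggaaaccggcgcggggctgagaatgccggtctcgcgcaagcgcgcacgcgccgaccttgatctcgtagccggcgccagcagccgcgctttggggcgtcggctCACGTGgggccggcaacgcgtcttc
Searched on both strands, ACGTG was in 39.0% of the 77 member promoters held by RefSeq and in 21.6% of all 27305. It was in 7 of the 15 (46.7%) whose lincRNA rose in both lines. CACGTG was in 13% of member promoters, 7.43% of all, and 2 of those 15. The promoter of LINC01816, among those 15, held neither. Of the 15, OSER1-DT, LINC01816, LINC02035, LINC02298, HCG27 and PSMG3-AS1 would miss the level rule without the geniposide samples of either line or both. The shares among the 15 are therefore a description. TGATGNAA, the core shared by C/EBP-ATF elements, was in 1.3% of member promoters and 3.67% of all, and TGACGTCA, the cAMP response element, in 1.3% and 1.98%. A match is a run of letters and not a shown binding site.

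EPB41L4A-AS1 had 10.6, 9.33 and 9.91 FPKM in geniposide HepG2 samples, against 3.94, 4.69 and 4.78 FPKM in untreated ones. Huh7 samples had 10.1, 11.9 and 15.9 FPKM with geniposide, against 3.88, 3.64 and 4.32 FPKM untreated. No geniposide value came near an untreated one in either line. The log2 rise was 1.0 ± 0.13 in HepG2 (adjusted p = 0.000148) and 1.44 ± 0.13 in Huh7 (2.97e-05), and these did not differ past the threshold (-0.44 ± 0.19, adjusted p = 0.105; 0.0238 without the first geniposide Huh7 library). Exons of EPB41L4A, a band 4.1 family gene on the other strand, overlap 49.6% of its bases. EPB41L4A itself had 3.57, 3.36 and 3.63 FPKM in geniposide HepG2, against 1.87, 1.77 and 1.82 FPKM in untreated HepG2, a log2 difference of 0.68 ± 0.10 (adjusted p = 0.000351), and in Huh7 it differed by -0.14 (adjusted p = 0.332).

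OSER1-DT, the divergent transcript of the oxidative stress gene OSER1, had 3.38, 2.71 and 2.54 FPKM with geniposide in HepG2, against 1.05, 1.45 and 0.763 FPKM untreated. Its Huh7 values were 3.7, 3.47 and 2.88 FPKM with geniposide, against 1.29, 1.47 and 1.13 FPKM untreated. The groups are apart in both lines, with log2 differences of 0.90 ± 0.13 in HepG2 and 0.92 ± 0.13 in Huh7. Every untreated value of OSER1-DT was under 2 FPKM, so only geniposide samples made it a member. Both differences are therefore a description. OSER1, which starts 169 bp away, rose by 0.21 in HepG2 (adjusted p = 0.0274) and differed by 0.15 in Huh7 (0.123). NUP50-DT had 15.1, 15 and 15 FPKM in geniposide HepG2, against 7.4, 8.65 and 8.29 FPKM in untreated HepG2. Its Huh7 values were 2.87, 4.29 and 4.78 FPKM with geniposide, against 2.32, 2.31 and 1.92 FPKM untreated. It rose by 0.82 ± 0.13 in HepG2 (adjusted p = 0.000427) and 0.63 ± 0.13 in Huh7 (0.00336; 0.0553 with Huh7 fitted alone), while NUP50 differed by 0.13 in HepG2 (0.464) and fell by 0.36 in Huh7 (adjusted p = 0.0445).

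LINC01816, of no assigned role here, gave the largest Huh7 rise among the shared ones. It had 5.37, 4.16 and 4.15 FPKM in geniposide HepG2 and 1.83, 1.89 and 1.47 FPKM in untreated HepG2. In Huh7 it had 3.64, 4.22 and 6.58 FPKM with geniposide and 1.05, 1.08 and 0.912 FPKM untreated. The log2 differences were 1.02 ± 0.16 in HepG2 and 1.5 ± 0.16 in Huh7. LINC01816 too was under 2 FPKM in every untreated sample and a member only through geniposide samples, so these differences are a description. AC026471.4 had 12.2, 11.2 and 12 FPKM in geniposide HepG2, against 3.74, 3.82 and 5.1 FPKM in untreated HepG2. Huh7 samples had 9.67, 8.13 and 10.5 FPKM with geniposide, against 3.34, 3.97 and 2.96 FPKM untreated. Its rises, 1.30 ± 0.12 in HepG2 (1.39e-05) and 1.24 ± 0.12 in Huh7 (4.27e-05), differ by less than their error.

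Smaller rises in both lines were seen at lincRNAs with some known biology. CRNDE, raised in colorectal cancer, had 3.95, 4.57 and 4.38 FPKM in geniposide HepG2, against 3.27, 3.31 and 3.27 FPKM in untreated HepG2. Its Huh7 values were 6.95, 7.66 and 7.96 FPKM with geniposide, against 5.6, 5.87 and 5.43 FPKM untreated. The shifts are small beside the level but the groups do not overlap, with log2 differences of 0.31 ± 0.06 in HepG2 (adjusted p = 0.00242) and 0.36 ± 0.06 in Huh7 (0.00137). TP53TG1, a p53-induced lincRNA, had 4.61, 4.83 and 5.0 FPKM in geniposide HepG2 and 2.3, 3.28 and 3.6 FPKM in untreated HepG2, a rise of 0.53 ± 0.12 (adjusted p = 0.0053). It rose by 0.59 ± 0.12 in Huh7 (adjusted p = 0.00427), where CROT, the carnitine octanoyltransferase gene 166 bp away, fell by 0.45 (adjusted p = 0.00414). In HepG2 CROT rose by 0.37 (adjusted p = 0.00984). AC007405.3 and BX537318.1 rose by 1.06 and 0.81 in HepG2 and by 0.93 and 1.21 in Huh7. LINC02298 rose by 0.66 in Huh7 and differed by 1.09 in HepG2, whose geniposide samples made it a member.

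**Figure D4:**
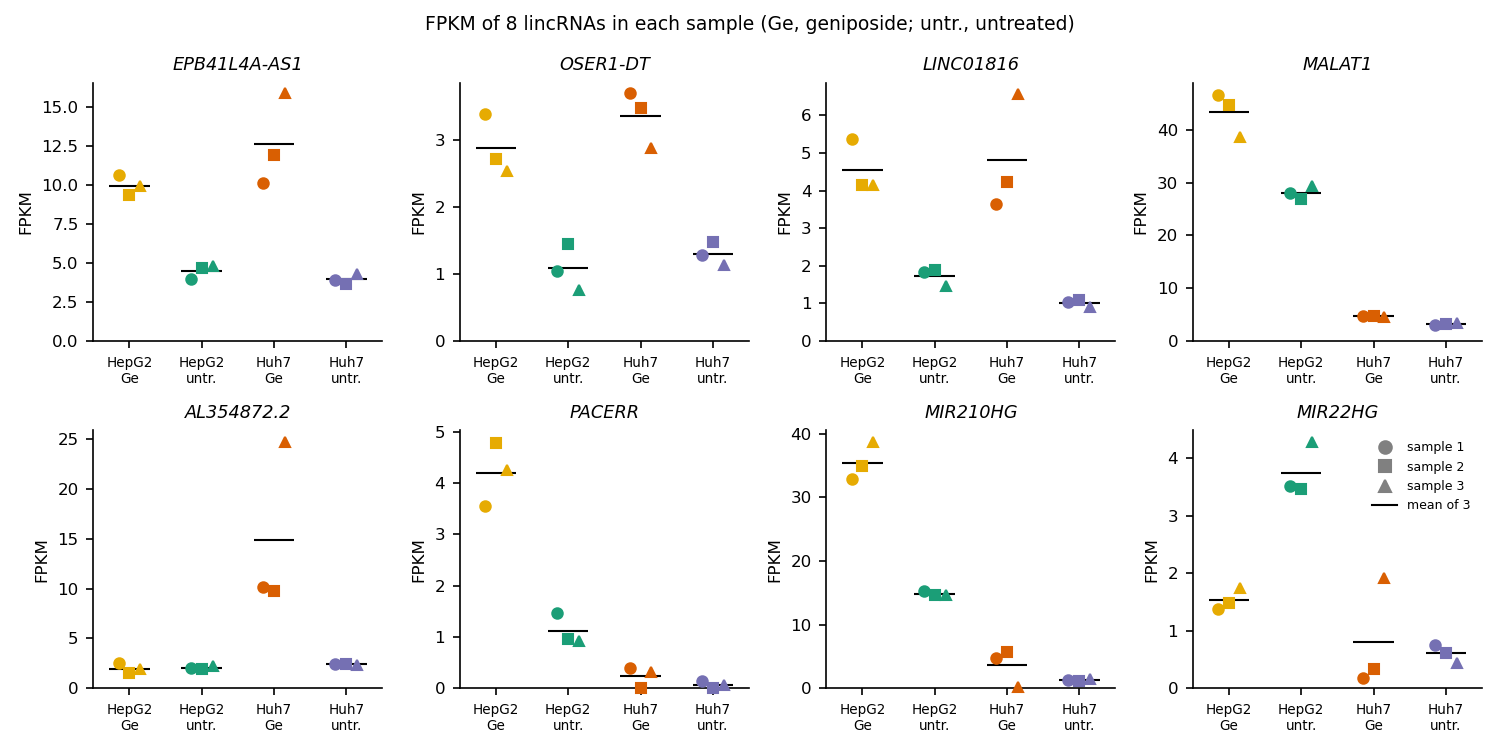
FPKM in every sample for 8 lincRNAs, with geniposide left of untreated for each line and bars at the mean of 3. EPB41L4A-AS1, OSER1-DT, LINC01816 and MALAT1 are higher in all geniposide samples of both lines, AL354872.2 is higher with geniposide in Huh7 (24.7 FPKM in the third library) and PACERR in HepG2, and MIR210HG and MIR22HG show the third geniposide Huh7 library away from the other two.

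In HepG2 the largest rise was at LINC00163, which had 4.47, 5.83 and 6.67 FPKM with geniposide, against 0.717, 0.52 and 1.06 FPKM untreated, and was listed at 0 in Huh7. The log2 difference was 1.91 ± 0.13, and the ratio of means 7.38, but it met the level rule only through the geniposide samples, so this rise chose it. It lies on chromosome 21 in a run of 5 members with LINC01547, AP001505.1, LINC00165 and PICSAR, the longest of the 23 runs in which neighbouring members lay within 100000 bp. Its neighbour LINC00165 had 46.0, 49.2 and 54.9 FPKM in geniposide HepG2, against 29.2, 32.9 and 29.7 FPKM in untreated HepG2, and rose by 0.69 ± 0.07 (adjusted p = 2.1e-05). PICSAR in the same run differed by 0.10 ± 0.05 (0.165). Of AP001505.1 and LINC01547, the first differed in Huh7 (below) and the second, named after its values were seen, had 7.3, 6.72 and 12.4 FPKM in geniposide Huh7, against 5.43, 5.12 and 4.71 FPKM in untreated Huh7, a rise of 0.65 ± 0.18 (adjusted p = 0.0186). FAM207A, which starts 97 bp from LINC01547 on the other strand, had 12.5, 12.4 and 9.13 FPKM with geniposide, against 23.5, 21.1 and 21.8 FPKM untreated.

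PACERR, the antisense RNA known to be transcribed beside the prostaglandin synthase gene PTGS2, had 3.56, 4.79 and 4.26 FPKM in geniposide HepG2, against 1.47, 0.958 and 0.926 FPKM in untreated HepG2. Its log2 difference was 1.30 ± 0.15, and it too met the rule only through the geniposide samples. PTGS2 starts 195 bp away on the other strand and had 21.0, 19 and 17.1 FPKM in the geniposide samples, against 3.47, 3.35 and 3.77 FPKM in the untreated ones, a rise of 2.14 ± 0.09 (1.01e-07). Both genes were at 0.39 FPKM or less in every Huh7 sample. AL365181.2, which starts 386 bp from the brain proteoglycan gene BCAN, had 9.78, 11.2 and 10.1 FPKM with geniposide in HepG2, against 3.19, 3.46 and 2.5 FPKM untreated, and rose by 1.5 ± 0.17 (5.19e-05).

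Other HepG2 rises were more scattered between samples. AC099552.3 had 15.5, 8.85 and 6.61 FPKM with geniposide, against 3.48, 3.05 and 1.7 FPKM untreated (log2 1.55 ± 0.25). AC006372.1 had 2.88, 5.04 and 3.86 FPKM, against 0.985, 0.241 and 1.27 FPKM untreated (1.45 ± 0.21). Both were listed at 0 in all Huh7 samples. AC132872.1 rose by 1.23, and AC110597.1 and AL451050.2 differed by 1.20 and 1.19. Of these 5, all but AC132872.1 met the rule only with the geniposide HepG2 samples. FAM160A1-DT had 12.6, 16 and 9.99 FPKM in geniposide HepG2, against 6.2, 3.5 and 6.4 FPKM in untreated HepG2, and its rise of 1.14 ± 0.32 (adjusted p = 0.0155) was lost without the second geniposide (0.0617) or the second untreated HepG2 library (0.0648).

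Several of the abundant HepG2 transcripts also rose. AC005392.2, with the values given above, rose by 0.86 ± 0.08 (adjusted p = 1.12e-05). AL161431.1 rose by 0.78 ± 0.06 (3.64e-06) and IGFL2-AS1 by 0.84 ± 0.05 (1.24e-06). AC007785.1, whose span crosses that of IGFL2-AS1 on the other strand with 0.0% of its exonic bases overlapped, had 47.2, 45.1 and 36.6 FPKM with geniposide, against 29.8, 19.4 and 23.2 FPKM untreated, a rise of 0.82 ± 0.16 (0.00176) that was not called with a pseudocount of 0.1 (0.134).

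Falls were fewer in HepG2, and the largest was at the AC245041 locus on chromosome 10 beside annexin genes. AC245041.1 had 5.38, 9.49 and 6.03 FPKM in geniposide samples, against 32.6, 30.4 and 35.6 FPKM in untreated ones, and fell by 2.12 ± 0.16 on the log2 scale (adjusted p = 3.25e-06). AC245041.2 had 4.71, 5.61 and 5.52 FPKM, against 11.1, 12.5 and 11.1 FPKM untreated, and fell by 1.0 ± 0.07 (2.68e-06). Of its 75-base stretches 50.9% also occur in transcripts of other genes, so the value of AC245041.2 is uncertain. The gene most often matched was ANXA8, an annexin gene, which had 4.39, 4.83 and 4.65 FPKM with geniposide, against 11.7, 12.8 and 12.3 FPKM untreated. AC245041.1 shares 0.0% with any other gene. AL162582.1 had 2.78, 1.66 and 2.05 FPKM in geniposide HepG2, against 10.8, 7.62 and 10.9 FPKM in untreated HepG2, a log2 difference of -1.76 ± 0.14, and met the rule only with the untreated samples.

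Named cancer and developmental lincRNAs were among the other falls. ELFN1-AS1 had 5.19, 5.71 and 5.81 FPKM in geniposide HepG2, against 12.2, 10.5 and 12.9 FPKM in untreated HepG2, a log2 difference of -0.97 ± 0.16 (adjusted p = 0.000644; 0.118 with a pseudocount of 0.1). FENDRR, a mesoderm lincRNA beside FOXF1, had 6.21, 6.81 and 6.27 FPKM with geniposide in HepG2, against 11.8, 11.2 and 11.7 FPKM untreated. Its Huh7 values were 4.56, 4.12 and 1.48 FPKM with geniposide, against 5.11, 5.52 and 5.31 FPKM untreated. All geniposide values are below all untreated ones in both lines, yet the shared spread was wide: the HepG2 fall of 0.76 ± 0.23 (adjusted p = 0.0232) was not called without any one of the geniposide libraries 1 and 3 or the 3 untreated HepG2 libraries (0.0512 to 0.0632), and the Huh7 difference of -0.61 (0.0658) was called as -0.24 (0.00516) without the third geniposide Huh7 library. AL355338.1 fell by 0.69 in HepG2, and AP000924.1, a member only with the untreated HepG2 samples, differed by -1.16.

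In Huh7 the largest rise was at AL354872.2 (chr1:70445071-70445536, plus strand). It had 10.2, 9.79 and 24.7 FPKM in geniposide Huh7, against 2.48, 2.42 and 2.33 FPKM in untreated Huh7, with a log2 rise of 2.10 ± 0.27 (adjusted p = 0.000228). In HepG2 it had 2.49, 1.52 and 1.92 FPKM with geniposide, against 2.02, 1.98 and 2.24 FPKM untreated. The Huh7 groups are far apart, with the third library highest, and the HepG2 groups overlap. AL354872.2 starts 5220 bp past the end of CTH, the cystathionine gamma-lyase gene of cysteine synthesis, on the same strand. CTH had 47.3, 48.4 and 140.3 FPKM in geniposide Huh7, against 17.0, 15.3 and 16.7 FPKM in untreated Huh7, a rise of 2.01 ± 0.32 (0.000851), and in HepG2 it differed by -0.42 (0.333). Whether reads of the lincRNA come from read-through of CTH was not tested.

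LINC01703 had 13.8, 13.5 and 10.7 FPKM with geniposide in Huh7, against 4.22, 5.21 and 4.85 FPKM untreated, and rose by 1.25 ± 0.12 (adjusted p = 4.66e-05). In HepG2 its groups overlapped, at 3.33, 3.78 and 2.96 FPKM with geniposide and 2.54, 3.53 and 2.71 FPKM untreated. LINC02321 had 5.44, 5.5 and 4.06 FPKM in geniposide Huh7, against 1.2, 0.464 and 1.42 FPKM in untreated Huh7, a log2 difference of 1.59 ± 0.25, and met the level rule only with the geniposide Huh7 samples. AC007114.1, which starts 68 bp from the kinase anchor gene AKAP1, had 4.83, 7.01 and 6.1 FPKM with geniposide in Huh7, against 2.09, 1.39 and 1.41 FPKM untreated, a difference of 1.41 ± 0.19, and it likewise needed the geniposide Huh7 samples to meet the rule. In HepG2 its rise of 0.54 ± 0.19 (adjusted p = 0.0425) was not called when any 1 of the 3 geniposide HepG2 libraries, the first or the third untreated HepG2 library or the second or the third untreated Huh7 library was left out (0.0534 to 0.157). GS1-124K5.4 rose by 1.09 in Huh7. AC112484.3, which did not meet the rule in the untreated columns, differed by 1.13 there. AC016205.1, a member only with the geniposide Huh7 samples, differed by 1.04.

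Among the Huh7 falls, AP001505.1 of the chromosome 21 run had 1.81, 2.06 and 1.09 FPKM with geniposide, against 5.34, 5.23 and 4.91 FPKM untreated, and fell by 1.23 ± 0.23 (adjusted p = 0.00201). AC019069.1 was lower in both lines, although HK2, the hexokinase gene that starts 6 bp away on the other strand, rose in both. It had 0.718, 0.159 and 0.815 FPKM in geniposide HepG2, against 1.21, 1.33 and 1.46 FPKM in untreated HepG2. In Huh7 it had 1.21, 1.63 and 1.74 FPKM with geniposide, against 3.81, 4.81 and 3.13 FPKM untreated. The log2 differences were -0.60 ± 0.17 in HepG2 (adjusted p = 0.0169; 0.0535 and 0.0548 without the second geniposide or the third untreated HepG2 library) and -0.95 ± 0.17 in Huh7, whose untreated samples alone made it a member. HK2 rose by 0.71 ± 0.09 in HepG2 (0.0001) and 0.42 ± 0.09 in Huh7 (0.00396). AC040977.1, AC012531.1, LINC00839, AL645608.2 and AC125807.2 fell in Huh7, while LINC01605, AC091182.2 and MGC12916 were members only with the untreated Huh7 samples; the log2 differences of these 8 ran from -0.83 to -0.36.

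The 3 members called in opposite directions differed by small amounts. LINC00467, a lincRNA raised in several tumours, had 0.83, 0.841 and 0.732 FPKM in geniposide HepG2, against 1.5, 1.2 and 1.3 FPKM in untreated HepG2. Huh7 samples had 5.19, 5.08 and 4.91 FPKM with geniposide, against 4.24, 3.73 and 3.72 FPKM untreated. The groups are separate in both lines: it fell by 0.37 ± 0.07 in HepG2 (adjusted p = 0.0014) and rose by 0.31 ± 0.07 in Huh7 (0.00575), and the difference between the lines was -0.68 ± 0.10 (0.000744). LINC00294 differed between lines by -0.73 ± 0.16 (0.00788) and AC027031.2 by 0.70 ± 0.17 (0.0114). Within lines those 2 were called near the threshold (0.0184 and 0.041 for LINC00294, 0.0316 and 0.0456 for AC027031.2) and each call was lost when some single libraries were left out.

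FOXD2-AS1, named for the forkhead gene FOXD2, differed through HepG2. It had 8.34, 8.7 and 7.71 FPKM in geniposide HepG2, against 3.43, 3.78 and 3.6 FPKM in untreated HepG2, a rise of 1.01 ± 0.24 (adjusted p = 0.00578). Its Huh7 values were 4.25, 3.73 and 1.31 FPKM with geniposide, against 3.47, 3.65 and 3.99 FPKM untreated, so only the third library lay low. The difference between lines was 1.29 ± 0.34 (0.0165), and 0.92 without that library.

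MicroRNA hosts come next. On the same strand, 11 members hold 20 microRNA genes, and 15 of the 16 looked up matched the RefSeq table. The mature arms of the hosts with the best-known products are shown 5′ to 3′ with the seed, bases 2 to 8, in capitals (RefSeq, GRCh38.p14), because the seed sets which messages a microRNA can pair with.
hsa-let-7a-5p: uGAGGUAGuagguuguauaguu
hsa-let-7b-5p: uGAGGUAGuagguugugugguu
hsa-miR-4458: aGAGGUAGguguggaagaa
hsa-miR-30a-5p: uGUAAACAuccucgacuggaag
hsa-miR-30c-5p: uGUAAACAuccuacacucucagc
hsa-miR-210-3p: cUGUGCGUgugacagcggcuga
hsa-miR-22-3p: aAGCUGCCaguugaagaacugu
hsa-miR-193b-3p: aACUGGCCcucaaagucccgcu
hsa-miR-365a-3p: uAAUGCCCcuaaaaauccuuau
hsa-miR-34a-5p: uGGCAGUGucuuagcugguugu
Let-7a and let-7b, both inside MIRLET7BHG, and miR-4458, inside MIR4458HG, share the let-7 seed GAGGUAG, and miR-30a and miR-30c, both inside LINC00472, share GUAAACA. The other seeds shown occur once. Poly-A RNA reads the host transcript and not the mature microRNA.

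No host of the shared-seed families passed the test. MIRLET7BHG had 2.55, 2.28 and 2.12 FPKM in geniposide HepG2, against 1.77, 2.15 and 2.41 FPKM in untreated HepG2 (log2 0.10 ± 0.09, adjusted p = 0.456). MIR4458HG had 3.47, 3.76 and 4.14 FPKM with geniposide, against 3.28, 3.4 and 2.74 FPKM untreated (0.21 ± 0.10, 0.132). LINC00472 had 2.78, 2.71 and 1.65 FPKM, against 2.32, 2.53 and 2.66 FPKM untreated (-0.07 ± 0.14, 0.757). All of these were at 0.666 FPKM or less in Huh7, where none was called, and MIR34AHG, the host of the p53 target miR-34a, was not called in either line (HepG2 -0.01 ± 0.10, 0.967; Huh7 0.08 ± 0.10, 0.595).

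MIR210HG (chr11:565660-568457, minus strand) hosts miR-210, the microRNA best known for its induction by hypoxia. Its promoter (chr11:568408-568707, minus, RefSeq GRCh38.p14) holds ACGTG, in capitals.
MIR210HG: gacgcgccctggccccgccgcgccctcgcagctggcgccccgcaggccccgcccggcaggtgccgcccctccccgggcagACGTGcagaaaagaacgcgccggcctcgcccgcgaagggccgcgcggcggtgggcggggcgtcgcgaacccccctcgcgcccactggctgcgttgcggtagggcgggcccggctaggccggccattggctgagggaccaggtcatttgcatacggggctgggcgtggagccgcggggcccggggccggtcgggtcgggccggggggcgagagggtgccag
It had 32.8, 34.9 and 38.6 FPKM in geniposide HepG2, against 15.3, 14.7 and 14.6 FPKM in untreated HepG2. In Huh7 it had 4.78, 5.78 and 0.232 FPKM with geniposide, against 1.37, 1.2 and 1.4 FPKM untreated. The HepG2 groups are far apart, while in Huh7 the third geniposide library lies below the untreated samples and the other two above them. Because all groups share an estimate of the spread, the HepG2 difference of 1.20 ± 0.49 missed the threshold (adjusted p = 0.0712), as did the Huh7 one of 0.65 ± 0.49 (0.345). Without the third geniposide Huh7 library they were 1.20 in HepG2 (7.6e-07) and 1.43 in Huh7 (1.44e-06), and with HepG2 fitted alone the adjusted p was 0.000151.

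MIR22HG (chr17:1711493-1717174, minus strand), host of miR-22 and a stress-responsive transcript, had 1.37, 1.49 and 1.75 FPKM in geniposide HepG2, against 3.51, 3.46 and 4.28 FPKM in untreated HepG2. Huh7 samples had 0.179, 0.344 and 1.91 FPKM with geniposide, against 0.754, 0.617 and 0.445 FPKM untreated. Again the third library went the other way from its group. The HepG2 difference was -0.90 ± 0.27, in a member that met the rule only with the untreated HepG2 samples, and the Huh7 difference was 0.06 ± 0.27 (adjusted p = 0.91), or -0.35 (0.0326) without the third geniposide Huh7 library. MIR193BHG, host of miR-193b and miR-365a, had 3.23, 3.5 and 3.87 FPKM in geniposide HepG2 and 4.47, 4.84 and 4.25 FPKM in untreated HepG2. Its fall of 0.28 ± 0.08 (0.0171) was lost without the first geniposide or the second untreated HepG2 library (0.0711 and 0.0719).

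NORAD (chr20:36045622-36050960, minus strand) is known for sequestering RNA-binding proteins of the Pumilio family in the cytoplasm. Its GENCODE 29 transcript holds 15 copies of TGTANATA, the Pumilio response element, and 5 are shown with flanks. The search fixed every base of the element but N, so the likeness of the copies is not a result. Capitals mark the element, and positions count from 1 at the transcript's 5′ end: 761 to 768, 1241 to 1248, 1451 to 1458, 2972 to 2979 and 4599 to 4606.
NORAD element 761: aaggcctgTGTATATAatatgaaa
NORAD element 1241: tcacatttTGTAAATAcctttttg
NORAD element 1451: gtatatagTGTACATAaaggacag
NORAD element 2972: ccctactgTGTATATAgcggacaa
NORAD element 4599: agcctattTGTAAATAcctttgtt
NORAD and HCG11 (chr6:26521709-26527404, plus strand) were alike in this, with 15 and 16 copies and 2.81 per kilobase each. NEAT1 followed with 6 copies (0.264 per kilobase), and 274 of the 306 had none. NORAD and HCG11 align over 4660 bases at 90.4% identity, but 2.03% of HCG11's 75-base stretches occur in another gene. For NORAD 20.6% do, most often in OVCH1-AS1, so the authors' counting could have split some of its reads.

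NORAD had 110.5, 112.4 and 103.2 FPKM in geniposide HepG2, against 76.4, 78.2 and 75 FPKM in untreated HepG2. Its Huh7 values were 43.4, 40.4 and 49.0 FPKM with geniposide, against 45.8, 45.7 and 46.6 FPKM untreated. The HepG2 groups are apart and the Huh7 groups overlap through the third geniposide library. NORAD rose by 0.50 ± 0.07 in HepG2 (adjusted p = 0.000137) and differed by -0.06 ± 0.07 in Huh7 (0.535; -0.13 and 0.0294 without that library). The difference between lines was 0.56 ± 0.09 (0.00163). HCG11, named after its values were seen, had 21.7, 22.4 and 21.3 FPKM in geniposide HepG2, against 14.7, 13.6 and 15.4 FPKM in untreated HepG2, a rise of 0.55 ± 0.07 (0.000107), and differed by 0.13 ± 0.07 in Huh7 (0.163). Of the proteins known to work with NORAD, TOP1, the topoisomerase of the NORAD complex, fell by 0.34 in HepG2 and 0.69 in Huh7, and RBMX, its RNA-binding partner, fell by 0.62 in Huh7.

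NEAT1 (chr11:65422774-65445540, plus strand) and its neighbour MALAT1 (chr11:65497688-65506516, plus strand) differed in their calls, which were not tested against each other. Gene values pool the 8 annotated transcripts of NEAT1 and the 17 of MALAT1. From poly-A RNA they do not read forms without a poly-A tail, so the level of the paraspeckle scaffold was not measured by itself. NEAT1 had 66.5, 71.9 and 70.8 FPKM in geniposide HepG2, against 58.8, 65.1 and 70.6 FPKM in untreated HepG2, values that overlap (log2 0.11 ± 0.09, adjusted p = 0.384). In Huh7 it had 2.26, 2.43 and 1.73 FPKM with geniposide, against 1.63, 1.47 and 1.64 FPKM untreated. That rise of 0.28 ± 0.09 (adjusted p = 0.0343) was not called when the first or second geniposide library or any untreated Huh7 library was left out (0.0649 to 0.115). MALAT1 had 46.7, 44.7 and 38.6 FPKM in geniposide HepG2, against 28, 26.9 and 29.3 FPKM in untreated HepG2. Huh7 samples had 4.7, 4.72 and 4.59 FPKM with geniposide, against 3.1, 3.26 and 3.42 FPKM untreated. Its groups are apart in both lines, and it rose by 0.61 ± 0.07 in HepG2 (5.38e-05) and 0.41 ± 0.07 in Huh7 (0.00104), a difference of 0.19 ± 0.10 (0.164; 0.0264 without the third geniposide HepG2 library). PURPL, a p53-regulated lincRNA, was not called in HepG2 (0.14, 0.52) or in Huh7 (0.23 ± 0.15, 0.277; 0.45 and 0.000685 without the third geniposide library).

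Of 18 measured genes for proteins that build paraspeckles on NEAT1, 1 rose and 11 fell in each line, with median log2 differences of -0.26 in HepG2 and -0.40 in Huh7, against 0.0 over all genes. Among all genes tested 21.5% fell in HepG2 and 18.1% in Huh7, and the share grew with the level: of genes that averaged 10 to 50 FPKM, 35.4% fell in HepG2 and 31.1% in Huh7. SFPQ, a core paraspeckle protein, averaged 40.6 FPKM in geniposide HepG2 and 60.6 FPKM in untreated HepG2 (-0.57 ± 0.09, adjusted p = 0.000656), and 44.5 FPKM in geniposide Huh7 and 90.6 FPKM in untreated Huh7 (-1.02 ± 0.09, 2.93e-05). PSPC1, its paralogue, fell by 0.68 ± 0.06 in HepG2 (1.44e-05) and 0.87 ± 0.06 in Huh7 (7.51e-06). NONO, the other member of that family, differed by 0.12 (0.17) in HepG2 and -0.15 (0.102) in Huh7. The single risers were SS18L1 in HepG2 and DAZAP1 in Huh7.

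Other machinery that makes or removes such RNAs was mixed, and the counts that follow are to be read against the same shares of all genes. Of 20 nuclear exosome and adaptor genes, which degrade many non-coding transcripts, 1 rose and 9 fell in HepG2 and 1 rose and 7 fell in Huh7 (medians -0.28 and -0.19), in Huh7 close to the share that fell among genes at 10 to 50 FPKM. MTREX, the helicase that feeds the exosome, fell by 0.34 in HepG2 and 0.41 in Huh7, and MPHOSPH6, its exosome cofactor, by 0.88 and 0.46. Of 14 Integrator genes, 1 rose and 6 fell in HepG2 and 2 rose and 8 fell in Huh7. Of 11 genes of Polycomb repressive complex 2, a chromatin complex known to bind RNA, 2 rose and 5 fell in HepG2 and 2 rose and 4 fell in Huh7. Of 10 microRNA processing genes, 2 rose and 3 fell in HepG2 and 1 rose and 4 fell in Huh7, DROSHA, the nuclear microRNA nuclease, by 0.47 and 0.41. Of 10 nonsense-mediated decay genes, 2 rose and 1 fell in HepG2 and 3 rose and 1 fell in Huh7.

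The lincRNAs were last compared with the coding genes beside them. The nearest coding start lay at a median distance of 17090 bp, within 5000 bp for 108 members and beyond 100000 bp for 40. A divergent layout, with starts within 1000 bp on opposite strands, held for 71 members, and 70 of their neighbours could be tested. In HepG2, 21 of these lincRNAs rose and 5 fell, and of the 21 neighbours of risers 12 rose, 7 were not called and 2 fell. In Huh7, 25 rose and 2 fell, and of the 25 neighbours 2 rose, 17 were not called and 6 fell. Of all 70 neighbours, 20 rose and 11 fell in HepG2, and 7 rose and 21 fell in Huh7, so in Huh7 the neighbours of risers were called at shares near those of all neighbours. Median log2 differences were 0.19 for the lincRNAs and 0.10 for their neighbours in HepG2, and 0.33 and -0.07 in Huh7.

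Across the 70 pairs, which share libraries and partly overlapping reads, Pearson's r of the log2 differences was 0.44 and Spearman's rho 0.34 in HepG2, and 0.10 and 0.20 in Huh7, given as a description. Across 182 other members and their nearest coding genes r was 0.27 in HepG2 and 0.25 in Huh7. PACERR and PTGS2 in HepG2 are the pair that went furthest up together, and AC019069.1 and HK2 a pair that went apart in both lines. PACERR met the level rule only with the geniposide HepG2 samples, and AC019069.1 only with the untreated Huh7 samples. The HepG2 counts of risers above include PACERR. Downstream of a coding gene on the same strand, within 10000 bp of its end, lay 45 members, with 38 pairs tested, where r was 0.19 and rho 0.19 in HepG2, and r was 0.49 and rho 0.10 in Huh7. CTH and AL354872.2 are among these pairs.

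**Figure D5:**
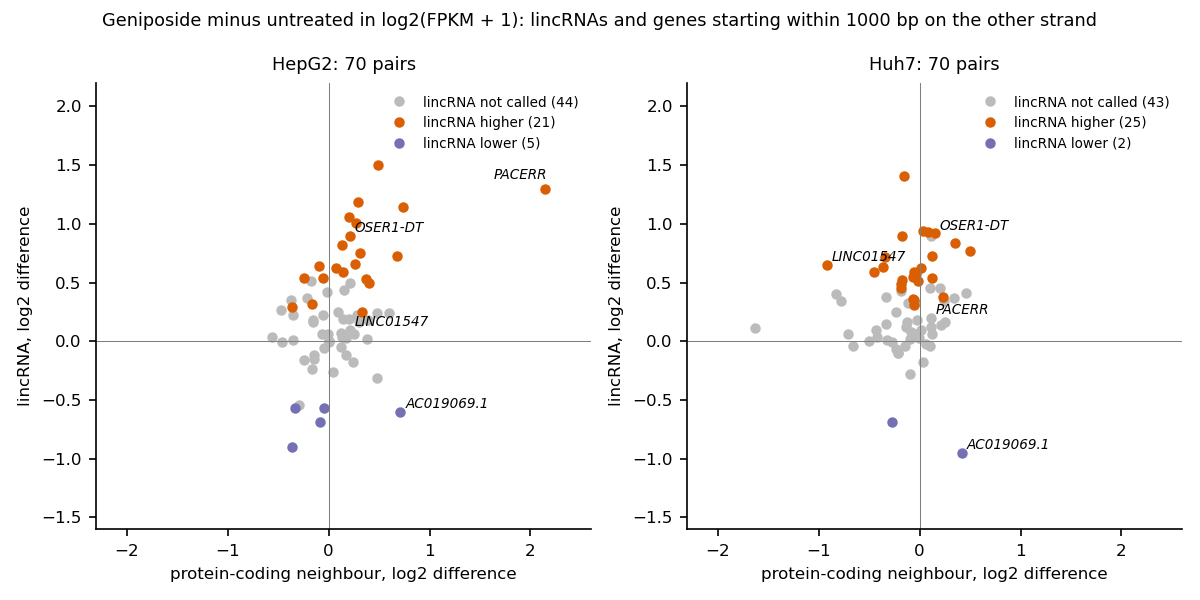
Geniposide minus untreated in log2(FPKM + 1) for 70 lincRNAs (vertical axis) and the protein-coding gene that starts within 1000 bp on the other strand (horizontal axis), in HepG2 (left) and Huh7 (right), coloured by the lincRNA's call. In HepG2, 12 of 21 risers have a neighbour that rose, with PACERR, a member only through its geniposide HepG2 samples, farthest to the right. In Huh7, 2 of 25 do, and LINC01547 rose beside a neighbour that fell.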

How the data were processed

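Poly-A RNA of 12 samples, 3 per group, was measured. The tools named in the submitters' processing notes are fastp and CASAVA, with the hg38 build, with versions, aligner and counter not given in the sources used here. FPKM per gene and sample, with no counts, were what the authors deposited. Multiplying by gene length gave whole fragments for 100.0% of values (within 0.05), 15056655 to 17211659 per sample, so counting error at 2 FPKM is set by gene length. These recovered fragments served for depth, shares, a floor of 3 fragments and 1 alternative.

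Genes at 1 FPKM or more in at least 3 samples (15518, all 306 members among them) were fitted as log2(FPKM + 1) with limma 3.58.1 in R 4.3.3: 4 group means, 12 samples, trended empirical Bayes, 8 residual degrees of freedom, and contrasts of geniposide minus untreated in each line and of HepG2 minus Huh7. P-values were adjusted by the Benjamini-Hochberg method over all 15518 genes, and 0.05 was the threshold. The fit was tested on simulated data. The members, gene lists and tests were chosen with earlier results of these data known.

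The members named are the 10 highest by mean, up to 10 largest rises and falls in each line, the 5 largest differences between lines in each direction, up to 10 called alike in both lines, all called in opposite directions, the 5 largest level ratios between lines in each direction, microRNA hosts and a list of known lincRNAs, of which 12 were members. Coordinates and overlaps come from GENCODE 29 (GRCh38), which held all 306. Promoters, available for 77 members, and microRNAs come from RefSeq (GRCh38.p14). The alternatives were a pseudocount of 0.1, no filter or a filter at 5 FPKM, TPM, median-of-ratios and quantile scaling, voom on recovered fragments, each line alone, a replicate block, each sample left out, level thresholds of 1 and 5 FPKM, and the rule met in the other line alone. The counts of 1 gene list are not reported here.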

Additional observations from a re-analysis of the deposited data

Results flagged for a closer look

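The geniposide effect differed between lines, by the test of the difference itself (HepG2 minus Huh7, limma adjusted p under 0.05, n = 3 per group), for 10 lincRNAs among the largest in each direction, where 14.1% of all genes tested had a positive and 13.7% a negative difference. On the log2(FPKM + 1) scale the positive ones were 1.91 for LINC00163, 1.55 for AC099552.3, 1.45 for AC006372.1, 1.32 for AP001505.1 and 1.29 for FOXD2-AS1. The negative ones were -2.2 for AC245041.1, -2.16 for AL354872.2, -1.81 for LINC02321, -1.76 for AL162582.1 and -1.09 for LINC01703. AP001505.1, FOXD2-AS1, AL354872.2 and LINC01703 were expressed in both lines, and voom on recovered fragments also called them (adjusted p = 0.018, 0.0137, 0.0315 and 0.0137). AC245041.1, near 0 in Huh7, had 0.0558 with voom. LINC00163, AC099552.3, AC006372.1 and AL162582.1 were listed at 0 in Huh7, so their difference is the HepG2 effect, and LINC02321 was near 0 in HepG2. These 5 met the level rule only with the samples in which they were high (geniposide HepG2 for the first 3, untreated HepG2 for AL162582.1, geniposide Huh7 for LINC02321), so the values tested chose them and their differences are a description.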

How the results depend on the processing

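Low levels limit these results: most members averaged under 5 FPKM, and the third geniposide Huh7 library stood apart. Calls over all genes moved with the settings too, so shifts in the counts below are not particular to lincRNAs. Left-out samples gave 99 to 143 calls in HepG2 (82 to 114 higher, 17 to 29 lower), 58 to 101 in Huh7 (49 to 89, 9 to 13) and 64 to 104 differences between lines (42 to 55 higher; 21 lower without the third untreated Huh7 or second geniposide HepG2 sample and 49 without the third geniposide Huh7 sample). A filter at 5 FPKM, which drops members, left 56 calls in HepG2 (44 higher, 12 lower), 32 in Huh7 (29, 3) and 39 differences (22, 17). Membership at 5 FPKM gave 53 (42, 11), 30 (28, 2) and 37 (20, 17), and at 1 FPKM 190 in HepG2 (43 lower), 123 in Huh7 (107 higher) and 58 negative differences. The rule met in the other line alone gave 53 (41, 12) in HepG2 and 49 (44, 5) in Huh7. Huh7 fitted alone gave 47 (41, 6), voom 29 differences (16, 13), and no filter 18 negative differences; the cause was not tested. By voom, 93 of the 102 HepG2 and 65 of the 69 Huh7 rises were called again. The difference reversed with voom for ELFN1-AS1 (0.56, adjusted p = 0.718) and AL365181.2 (-0.20, 0.89), both low in Huh7, and MIR22HG in Huh7 ran from -0.35 to 0.31 with samples left out, the first without the third geniposide sample. The 7 lists of RNA machinery together gave 7 to 16 higher and 32 to 47 lower in HepG2 and 5 to 13 higher and 32 to 49 lower in Huh7 with samples left out (10 and 37 in each line with all; 5 without the second or the third untreated Huh7 sample, 16 without the third geniposide Huh7 sample). Same-numbered deviations correlated at -0.0615 to 0.0201, so no pairing by replicate number was seen, although this cannot show how the samples were grown. With the replicate block, 118 members were called in HepG2 (96 higher, 22 lower), 77 in Huh7 (66, 11) and 65 for the difference (43, 22).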
